A study of Homo sapiens with 30 samples.

Results

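The response of LOUCY leukemia cells to induction of a *MEF2C* construct was measured in medium alone, without stromal cells. These are 6 of the 30 arrays of the series, picked by their sample titles, with 3 arrays of LOUCY_MEF2C-BFP cells grown with doxycycline (dox, 0.5 μg/mL) and 3 of the same line grown without dox. LOUCY is a human T-cell acute lymphoblastic leukemia line with an immature phenotype that already expresses its own *MEF2C*, because of a chromosomal rearrangement near the gene at 5q14.3, and it carries no mutation of *NOTCH1* or *FBXW7*. All 6 samples carry the lentiviral construct, in which the dox-responsive TRE3G promoter drives a codon-optimized human *MEF2C* without the β domain, tagged with 3xHA and joined to blue fluorescent protein through a self-cleaving peptide, and a TET-on activator with puromycin resistance is driven by SFFV. The line is a sorted bulk population and not a single clone. A figure legend of the study gives 24 hours of induction. The other 24 arrays hold the same line on OP9-GFP and on OP9-DL1 mouse stroma (the second displays the Notch ligand Delta-like 1), a line with dox-inducible intracellular NOTCH1 (ICN) in medium, and a line with both constructs in medium, each with dox and without, on 3 arrays per group.

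MEF2C is a transcription factor of the MADS-box family that binds AT-rich DNA. It is known for its part in muscle and heart development, in neurons, and in the early lymphoid and myeloid progenitors of the blood, where it supports B cell genes. Class IIa histone deacetylases bind MEF2 factors and hold them in a repressive state, and calcium-dependent kinases release them by sending these deacetylases out of the nucleus. The comparison of cells with dox and cells without dox addresses which genes move when more MEF2C is made in a T-lineage leukemia, and in medium it does so without signals from stroma.

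Expression was read on Affymetrix HG U133 Plus 2.0 arrays as log2 values from robust multiarray averaging (RMA), in which an increase by 1 is a doubling of signal. A gene is given here by its brightest probe set, which leaves 19775 genes. Fold changes are log2 differences of the group means, with dox minus without dox, given ± SE, and "rose" and "fell" are used at an adjusted p under 0.05 (limma, Benjamini-Hochberg). Over all probe sets, pairs of arrays of 1 group correlated at 0.996 to 0.997, and pairs across the groups at 0.992 to 0.995. The first principal component held 45.5% of the variance and separated the 3 arrays with dox from the 3 without. Arrays have no read depth, so their number limits the precision. Each SE and p-value comes from a model of all arrays of the series. The p-values therefore reflect only the scatter within groups pooled over the series, including the stromal and ICN arrays, and not that of the medium arrays alone. Since nothing says that replicates came from separate cultures, that scatter may be technical. LOUCY cells with dox and no construct were not analysed here, and an effect of dox itself cannot be told apart from one of MEF2C in these 6 arrays.

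The markers of the labelled T-lineage cells were present in both groups, with *CD3D*, *CD3G*, *CD247*, *LCK*, *GATA3* and *BCL11B* at means above 8.9, while *CD2* stood at 3.56 with dox and 3.41 without. Summed linear signal of the 9 measured T-lineage markers was 10689 to 11233 with dox, against 10187 to 10729 without dox. Of these 9, 1 rose, *GATA3* (mean 12.31 with dox, against 11.49 without dox), and 3 fell, *CD3D*, *CD3G* and *LCK*. A linear sum is weighted to its brightest members, and *GATA3* was the brightest with dox, so the sum hides these falls. Of the 5 measured B lineage markers none rose or fell, their sum was 417 to 519 with dox, against 483 to 537 without dox, and *PAX5* had 5.26, 4.99 and 5.06 with dox, against 5.08, 5.18 and 5.22 without dox. The same sum for the 6 myeloid markers was 91.0 to 102 with dox, against 123 to 132 without dox, and that of the 4 NK markers 82.0 to 88.1 with dox, against 90.2 to 92.7 without dox. For the 2 measured erythroid markers it was 119 to 127 with dox, against 155 to 209.6 without dox. The 6 stromal markers summed to 209.8 to 213.7 with dox, against 212 to 292 without dox, and the 3 progenitor markers to 63.4 to 69.6 with dox, against 61.7 to 72.3 without dox. RMA gives no zeros, and the part of other cell types in the results was not tested.

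The *MEF2C* signal itself depended on the probe set. The brightest *MEF2C* probe set, 209199_s_at, had 9.19, 9.25 and 9.17 with dox, against 10.28, 10.31 and 10.25 without dox. It fell by 1.08 ± 0.05 (adjusted p = 2.5e-14), and 209200_at, with 9.18, 9.07 and 9.08 with dox against 10.16, 10.17 and 10.13 without dox, fell by 1.04 ± 0.06 (adjusted p = 6.8e-12). The third probe set, 207968_s_at, had 8.36, 8.09 and 8.17 with dox, against 7.62, 7.72 and 7.70 without dox, and rose by 0.53 ± 0.14 (adjusted p = 0.025). In the ICN line, which has no *MEF2C* construct, all 3 probe sets fell with dox, by 0.26, 0.32 and 0.48 in the same order. On OP9-GFP, on OP9-DL1 and in the line with both constructs 207968_s_at was also higher with dox. Its means there were 8.69, 8.55 and 8.25 with dox, against 7.47, 7.93 and 7.58 without dox. The OP9-GFP mean without dox came from arrays at 7.83, 6.90 and 7.68. In these 3 settings 209199_s_at and 209200_at were lower with dox. A figure legend of the study places most *MEF2C* probe sets of the array outside the cloned cDNA and has another that also covers it. The study reports that induction repressed endogenous *MEF2C*. The legend counts more *MEF2C* probe sets than the 3 shown here, which are those with *MEF2C* as their only symbol. Its text does not name the probe sets, so whether any of the 3 covers the construct, and which, was not settled. The *MEF2C* signals therefore check the labels only in part.

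**Figure D1:**
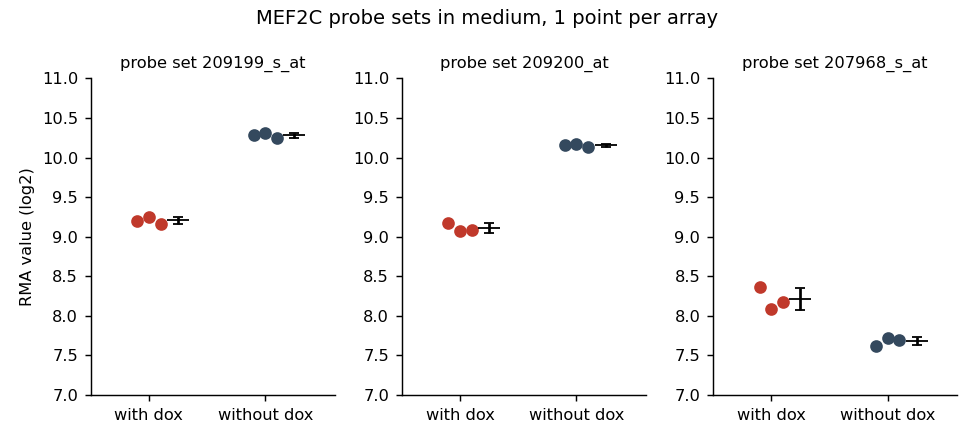
RMA values (log2) of the 3 probe sets with *MEF2C* as their only symbol, in the MEF2C line in medium. Each point is 1 array, with dox at the left and without dox at the right of each panel, and the mean ± SD stands beside the points. The points of 209199_s_at and 209200_at lie near 9.1 to 9.3 with dox and above 10.1 without dox, while those of 207968_s_at lie higher with dox.

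Induction changed 1701 genes, of which 994 rose (5.03% of 19775) and 707 fell (3.58%). Most changes were small. The median log2 fold change was 0.39 over the genes that rose, -0.40 over those that fell and -0.01 over all genes. A change beyond 1 on the log2 scale was reached by 81 genes that rose and 57 that fell, and one beyond 2 by 23 and 6. The arrays with and without dox did not overlap for 988 of the 994 genes that rose and 702 of the 707 that fell. A lack of overlap therefore sets no called gene apart from the others. Calls were rarer where signal was low, since 45 of 5475 genes with a mean under 4 without dox rose (0.822%) and 25 fell (0.457%). The count of rises depended on 1 array, with 590 genes without no-dox replicate 1, and a fit to the 6 arrays alone called 441 rises and 353 falls. Quantile normalization called 884 rises and 926 falls, so the balance between them depended on the scaling. Where a call is given below as lost without several arrays, each of them was left out singly.

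The largest rise on the RMA scale was that of *SCG2*, secretogranin II, a protein of the secretory granules of neurons and endocrine cells. It had 8.50, 8.62 and 8.53 with dox, against 3.22, 3.20 and 2.90 without dox (log2 fold change 5.44 ± 0.13, adjusted p = 1.2e-19). *AQP4*, the water channel of astrocytes, had 7.08, 7.41 and 7.28 with dox, against 2.06, 2.01 and 2.27 without dox (log2 fold change 5.15 ± 0.13, adjusted p = 5.2e-19). *CSRP3*, the muscle LIM protein of the Z disc, had 9.34, 9.14 and 9.24 with dox, against 5.01, 4.79 and 4.81 without dox (log2 fold change 4.37 ± 0.16, adjusted p = 3.3e-16). Every array with dox stood more than 4 log2 units above every array without dox for these 3 genes.

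*FCER1A*, the alpha chain of the IgE receptor of mast cells and basophils, had 7.23, 7.37 and 7.79 with dox, against 3.26, 2.97 and 3.47 without dox (log2 fold change 4.23 ± 0.14, adjusted p = 1.7e-16). *MMP20*, the matrix protease of developing tooth enamel, had 6.16, 6.55 and 6.64 with dox, against 2.56, 2.38 and 2.33 without dox (log2 fold change 4.03 ± 0.18, adjusted p = 1.2e-14). Like *SCG2* and *AQP4*, both were at the low end of the scale without dox, where background signal makes up much of a value and shrinks a fold change, so the order of size among these genes is not settled. Of the 25 largest rises, 15 had a mean under 5 without dox, among them *PSTPIP2* (an actin-binding protein of myeloid cells, 3.25 ± 0.19), *COBL* (an actin nucleator, 3.08 ± 0.13), *SHROOM3* (which shapes epithelial cells through actin, 3.12 ± 0.13), *SLAIN1* (a microtubule regulator, 2.29 ± 0.12) and *POU1F1* (a transcription factor of the pituitary, 2.26 ± 0.19).

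Other genes that rose had a mean above 5 without dox. *SLC6A13*, a transporter for the neurotransmitter GABA, had 12.05, 12.12 and 12.08 with dox, against 8.59, 8.61 and 8.70 without dox (log2 fold change 3.45 ± 0.13, adjusted p = 5.5e-16), a level already high without dox. *SLC5A12*, a sodium-coupled carrier for lactate, rose by 2.81 ± 0.10, and *SLC6A12*, a betaine and GABA transporter with a lower level, by 2.16 ± 0.15. Over the 376 measured solute carrier genes, 29 rose (7.71%, against 5.03% of all genes), 12 fell and the median was -0.01. *KYNU*, kynureninase of tryptophan breakdown, averaged 8.94 ± 0.06 with dox, against 5.73 ± 0.25 without dox (SD, n = 3 each, log2 fold change 3.21 ± 0.12, adjusted p = 4.9e-16). *HEMGN*, hemogen, a nuclear protein of blood progenitors, had 11.84, 11.90 and 11.96 with dox, against 9.93, 10.01 and 9.80 without dox (log2 fold change 1.98 ± 0.11, adjusted p = 5.7e-13). The 3 values with dox were within 0.13 of each other for *SLC6A13*, *KYNU* and *HEMGN* and lay apart from those without dox.

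The remaining large rises took in surface receptors and enzymes. *SUCNR1* (the succinate receptor) rose by 2.11 ± 0.15, *HRH4* (the histamine H4 receptor) by 2.14 ± 0.20, *NT5E* (CD73, which makes adenosine outside the cell) by 2.04 ± 0.15, and *LRP11* (of the lipoprotein receptor family) by 2.26 ± 0.08. *GLDC*, the glycine decarboxylase of mitochondria, rose by 2.47 ± 0.12. *ERN1*, the IRE1 sensor of unfolded proteins, rose by 1.94 ± 0.11. Over the 25 largest rises the SE was at most 0.20. All 25 also rose on OP9-GFP stroma and 24 on OP9-DL1 stroma, against 40.7% and 37.9% of all 994 genes that rose in medium. These 25 were picked for their size, so the counts are descriptions. For 11 of them the fold change in medium differed from that with OP9-GFP stroma. For 10 it differed from that with OP9-DL1 stroma.

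**Figure D2:**
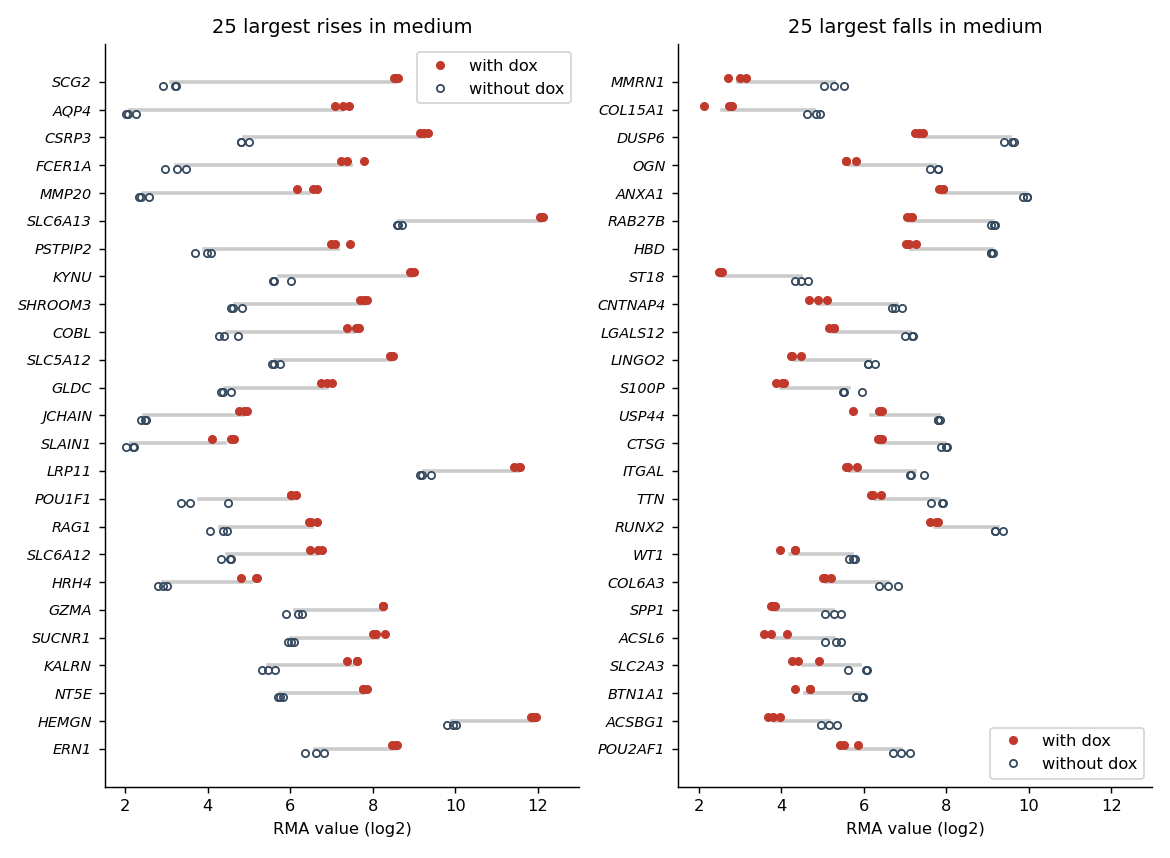
RMA values (log2) of the 25 genes with the largest rise (left) and the 25 with the largest fall (right) in medium. Filled points are the 3 arrays with dox, open points the 3 without dox, and the gray bar joins the group means. *SCG2* and *AQP4* lie above 7 with dox and below 3.3 without dox, and *MMRN1* lies below 3.2 with dox and above 5 without dox.

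The 25 largest falls lay between -2.33 and -1.30, and the 25 largest rises between 1.94 and 5.44. *MMRN1*, multimerin 1 of platelets and endothelium, had 3.01, 3.15 and 2.71 with dox, against 5.29, 5.52 and 5.03 without dox (log2 fold change -2.33 ± 0.15, adjusted p = 4.5e-11). *DUSP6*, the phosphatase that acts on ERK and is itself an ERK target, had 7.24, 7.45 and 7.33 with dox, against 9.60, 9.64 and 9.41 without dox (log2 fold change -2.21 ± 0.09, adjusted p = 2.0e-15). *ANXA1*, annexin A1, had 7.83, 7.93 and 7.93 with dox, against 9.96, 9.95 and 9.86 without dox (log2 fold change -2.03 ± 0.07, adjusted p = 1.6e-16). In each of the 3 genes the highest array with dox stayed more than 1.8 below the lowest array without dox. Secretory and vesicle proteins among the falls were *RAB27B*, a GTPase of secretory vesicles (-2.01 ± 0.07), and *CTSG*, the granule protease cathepsin G (-1.57 ± 0.10).

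*COL15A1*, a collagen, fell by 2.25 ± 0.17, *OGN* (osteoglycin) by 2.08 ± 0.14, *COL6A3*, another collagen, by 1.51 ± 0.14, and *SPP1* (osteopontin) by 1.46 ± 0.15. Of these 4 only *COL6A3* is on the list of stromal and matrix genes. Over the 31 genes of that list, 5 fell (16.1%) and 1 rose (3.23%), against 3.58% and 5.03% over all genes, with a median of -0.15. The 1 that rose, *FBN1*, lost its call without with-dox replicates 1 and 3 or no-dox replicate 1 (adjusted p = 0.052 to 0.14), and with the mean of all its probe sets (0.23, adjusted p = 0.101). Among the falls, *COL5A2* lost its call without with-dox replicates 1 and 3 or no-dox replicates 2 and 3 (adjusted p = 0.068 to 0.1). Other large falls were those of *CNTNAP4* and *LINGO2*, membrane proteins of neurons (-1.91 ± 0.15 and -1.83 ± 0.12), *ST18*, a zinc finger factor (-1.95 ± 0.17), *LGALS12*, a galectin (-1.89 ± 0.10), *USP44*, a deubiquitinase (-1.63 ± 0.24), *ACSL6*, an acyl-CoA synthetase (-1.45 ± 0.20), *BTN1A1*, a butyrophilin (-1.34 ± 0.20), and of *ITGAL*, the alpha chain of the adhesion receptor LFA-1, which had 5.56, 5.83 and 5.63 with dox, against 7.13, 7.46 and 7.14 without dox (log2 fold change -1.57 ± 0.11, adjusted p = 7.4e-11).

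Promoters of the changed genes were searched for the MEF2 motif, the AT-rich consensus to which MEF2 factors bind, on both strands of the 300-base windows of RefSeq promoters (GRCh38.p14, 250 bases before to 50 after a start site). A match was found in 29 of 1191 windows of genes that rose (2.43%), in 23 of 872 windows of genes that fell (2.64%), in 463 of 21490 windows of all measured genes (2.15%) and in 1050 of all 35116 windows (2.99%). Of the genes that rose, 794 of 994 matched an entry of the table, and of those that fell, 550 of 707. None of the 28 windows of the 25 largest rises held the motif (21 genes matched), and 2 of 32 windows of the 25 largest falls did, those of *TTN* and *ACSBG1* (19 matched). A match is a description of the letters and not of binding. The windows below are those of *TTN* and *ACSBG1*, of *MEF2C* itself, and of 4 genes that rose, *KLF2*, *SLC8A3*, *KLHL3* and *HRK*, with the motif in capitals and its strand that of the gene.
TTN, chr2:178807571-178807600, minus strand: ctttgaggtaCTAAATTTAGcactgtcaat
ACSBG1, chr15:78234621-78234650, minus strand: ttttgagcttCTAAAAATAGagaggaaatg
MEF2C, chr5:88824500-88824529, minus strand: atattccataTTATTTTTAAggtgttctca
KLF2, chr19:16324696-16324725, plus strand: tataccgcggCTAAATTTAGgctgcgcccg
SLC8A3, chr14:70189424-70189453, minus strand: tagttccctgCTATATTTAAaaaccacaga
KLHL3, chr5:137706612-137706641, minus strand: tattttgttaTTATAAATAAtgatataatg
HRK, chr12:116881451-116881480, minus strand: gacactttaaTTAATAATAGcgccgtcagc

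The same letters stand in the windows of *TTN*, which fell, and of *KLF2*, which rose. *TTN*, the giant spring protein of the sarcomere, had 6.24, 6.42 and 6.18 with dox, against 7.64, 7.93 and 7.90 without dox (log2 fold change -1.54 ± 0.11, adjusted p = 1.7e-10). *ACSBG1*, an enzyme that activates long fatty acids, fell by 1.34 ± 0.17. *SLC8A3*, a sodium and calcium exchanger, rose by 1.35 ± 0.17, and *KLHL3*, an adaptor of a ubiquitin ligase, by 1.68 ± 0.08. *KLF2*, a factor of lymphocyte quiescence and trafficking, rose by 0.56 ± 0.14, a call that was lost without with-dox replicate 1 or no-dox replicate 1 (adjusted p = 0.07 to 0.071).

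The gene lists that follow are set beside all 19775 genes, of which 5.03% rose and 3.58% fell. The lists were chosen with earlier results of these data known, so their shares are descriptions and do not test enrichment. Of 13 measured immunoglobulin chain genes 4 rose (30.8%), none fell, and the median was 0.13, against -0.01 over all genes. *JCHAIN*, which joins IgM and IgA into polymers, had 4.75, 4.88 and 4.94 with dox, against 2.48, 2.37 and 2.50 without dox (log2 fold change 2.41 ± 0.11, adjusted p = 1.2e-14). *IGHM*, the mu heavy chain, had 12.02, 11.93 and 11.98 with dox, against 10.61, 10.71 and 10.84 without dox (log2 fold change 1.26 ± 0.09, adjusted p = 1.9e-10). Its 5 probe sets disagreed, since 2 rose and 1 fell, and with the probe set of largest variance the value was -0.45 (adjusted p = 0.019). *IGHD*, the delta chain, rose by 0.51 ± 0.09, but stood at 0.22 (adjusted p = 0.299) with that choice. *IGKC*, the kappa chain, had 5.74, 5.43 and 6.28 with dox, against 5.47, 4.97 and 5.20 without dox, which overlapped, and its call was lost without with-dox replicate 3 or no-dox replicates 2 and 3 (adjusted p = 0.057 to 0.19) and with the mean of its probe sets, at 0.07 (adjusted p = 0.544). Transcripts of unrearranged immunoglobulin genes and of rearranged ones cannot be told apart on these arrays.

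Of 11 V(D)J recombination genes 3 rose (27.3%) and none fell, with a median of 0.01. The antigen receptor loci are cut by the products of *RAG1* and *RAG2*, and *LIG4* encodes the ligase that rejoins the ends. *RAG1* had 6.44, 6.51 and 6.64 with dox, against 4.06, 4.45 and 4.37 without dox (log2 fold change 2.24 ± 0.13, adjusted p = 5.5e-12), and *RAG2* had 5.59, 5.63 and 5.54 with dox, against 4.63, 4.96 and 4.69 without dox (log2 fold change 0.83 ± 0.14, adjusted p = 2.5e-04). *LIG4* had 9.93, 9.86 and 10.01 with dox, against 8.62, 8.75 and 8.48 without dox (log2 fold change 1.31 ± 0.08, adjusted p = 1.8e-11). The groups did not overlap for any of these 3 genes, as for 988 of the 994 genes that rose.

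The B lineage factors numbered 22, of which 7 rose (31.8%) and 2 fell (9.09%), with a median of -0.03. *IKZF1* (Ikaros, needed for all lymphoid lineages) had 10.66, 10.64 and 10.55 with dox, against 9.57, 9.63 and 9.63 without dox (log2 fold change 1.01 ± 0.06, adjusted p = 8.7e-12). A rise was called in 7 of 9 probe sets of *IKZF1*, and not in the one of largest variance (0.91, adjusted p = 0.08). *IRF8*, a factor of B cells and dendritic cells, rose by 1.18 ± 0.18, *BCL6*, a repressor of germinal center B cells, by 0.78 ± 0.07, and *ID3*, which blocks E proteins, by 0.73 ± 0.09. *EBF1*, which specifies B cells together with PAX5, had 9.54, 9.47 and 9.42 with dox, against 8.93, 9.06 and 9.01 without dox (log2 fold change 0.48 ± 0.06, adjusted p = 8.4e-06), while *PAX5* did not pass (log2 fold change -0.05 ± 0.10, adjusted p = 0.85). *POU2AF1*, a B cell coactivator of octamer factors, moved the other way, with 5.43, 5.87 and 5.53 with dox, against 6.71, 7.13 and 6.90 without dox (log2 fold change -1.30 ± 0.14, adjusted p = 2.8e-07). Among 30 B cell receptor and surface genes none rose and 3 fell (10%), *CD52*, *BANK1* and *VPREB1*, at -1.19 ± 0.21, -1.13 ± 0.17 and -0.39 ± 0.10, and the median was -0.14. The call of *VPREB1*, the surrogate light chain, was lost without with-dox replicates 2 and 3 or no-dox replicates 1 and 3 (adjusted p = 0.058 to 0.12). None of the 12 MHC class II genes rose or fell (median -0.04).

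Of 16 T lineage transcription factors 4 rose (25%) and 3 fell (18.8%, median -0.06). *GATA3*, needed from the first T cell stages on, had 12.30, 12.35 and 12.27 with dox, against 11.41, 11.55 and 11.51 without dox (log2 fold change 0.82 ± 0.06, adjusted p = 9.7e-11). *SATB1*, a chromatin organizer of thymocytes, had 10.83, 10.66 and 10.76 with dox, against 9.52, 9.90 and 9.66 without dox (log2 fold change 1.06 ± 0.08, adjusted p = 1.9e-10). *NFIL3* rose by 0.70 ± 0.07, and *NFATC1* by 0.24 ± 0.07, a call lost without with-dox replicates 1 and 2 or no-dox replicate 1 (adjusted p = 0.081 to 0.21). *TOX2*, *ID2* and *IKZF2* fell by 1.13 ± 0.18, 0.46 ± 0.07 and 0.31 ± 0.07.

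The T cell receptor complex had 8 genes measured, of which 4 fell (50%) and none rose, with a median of -0.28. *CD3D*, a signaling chain of the receptor, had 11.42, 11.26 and 11.34 with dox, against 11.90, 11.92 and 11.95 without dox (log2 fold change -0.59 ± 0.06, adjusted p = 9.0e-08), and *CD3G*, another such chain, had 9.31, 8.77 and 8.94 with dox, against 9.56, 9.49 and 9.58 without dox (log2 fold change -0.54 ± 0.11, adjusted p = 0.0017). The sets of arrays did not overlap, as for 702 of the 707 genes that fell, and the differences were below 1 on the log2 scale. With the 6 arrays fitted alone *CD3G* did not pass (adjusted p = 0.0571). *TRAT1*, an adaptor that stabilizes the receptor, had 3.98, 4.76 and 4.21 with dox, against 5.43, 5.67 and 5.36 without dox (log2 fold change -1.18 ± 0.14, adjusted p = 1.1e-06), and *TRDV3*, a variable segment of the delta chain, fell by 0.31 ± 0.05. *CD3E* had 7.57, 7.42 and 7.41 with dox, against 7.71, 7.70 and 7.73 without dox, without overlap, and did not pass (log2 fold change -0.24 ± 0.09, adjusted p = 0.11), but it passed with only the probe sets of mean 5 or more (adjusted p = 0.0461) and with quantile normalization (-0.30, adjusted p = 0.0325). In a bulk culture fewer cells of a type and less RNA per cell cannot be told apart, and this holds for every group described here.

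Of 39 genes of T cell signaling 14 fell (35.9%, against 3.58% of all genes) and 2 rose (5.13%, against 5.03%), with a median of -0.20. *LAT*, the adaptor that links the receptor to its downstream kinases, had 7.51, 7.41 and 7.36 with dox, against 8.46, 8.68 and 8.57 without dox (log2 fold change -1.14 ± 0.12, adjusted p = 2.9e-07). *TESPA1*, a thymocyte signaling protein, had 7.53, 7.48 and 7.51 with dox, against 8.37, 8.51 and 8.63 without dox (adjusted p = 9.2e-10). The highest array with dox lay below the lowest array without dox in both, as in 702 of the 707 genes that fell. *IL16* fell by 0.89 ± 0.14, *IL2RB* (the beta chain of the IL-2 receptor) by 0.86 ± 0.08, *PTPN22* (a phosphatase of T cells) by 0.67 ± 0.10, *PRKCZ* by 0.61 ± 0.10 and *VAV1* by 0.51 ± 0.10. *PAG1*, *SIT1*, *SH2D2A*, *PRKCQ*, *CD244* and *PRKCH* had smaller falls of 0.50, 0.38, 0.37, 0.35, 0.31 and 0.29, and *CD244* stood at -0.01 (adjusted p = 0.984) with the mean of its probe sets. *LCK*, the kinase that starts receptor signaling, fell by 0.20 ± 0.06, and the call was lost without with-dox replicates 1, 2 and 3 or no-dox replicates 2 and 3 (adjusted p = 0.054 to 0.19). The members that rose were *TXK*, a kinase of the TEC family, with 6.86, 6.90 and 6.64 with dox, against 5.07, 5.05 and 5.31 without dox (log2 fold change 1.66 ± 0.11, adjusted p = 7.4e-11), and *SH2D1A* (0.33 ± 0.06). *CD5* did not pass (log2 fold change -0.47 ± 0.19, adjusted p = 0.16), although it fell in a model of the 18 arrays of the MEF2C line (adjusted p = 0.0246). Neither did the chemokine receptors *CXCR3* (log2 fold change -0.37 ± 0.13, adjusted p = 0.11) and *CCR7* (log2 fold change -0.34 ± 0.13, adjusted p = 0.15) pass.

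**Figure D3:**
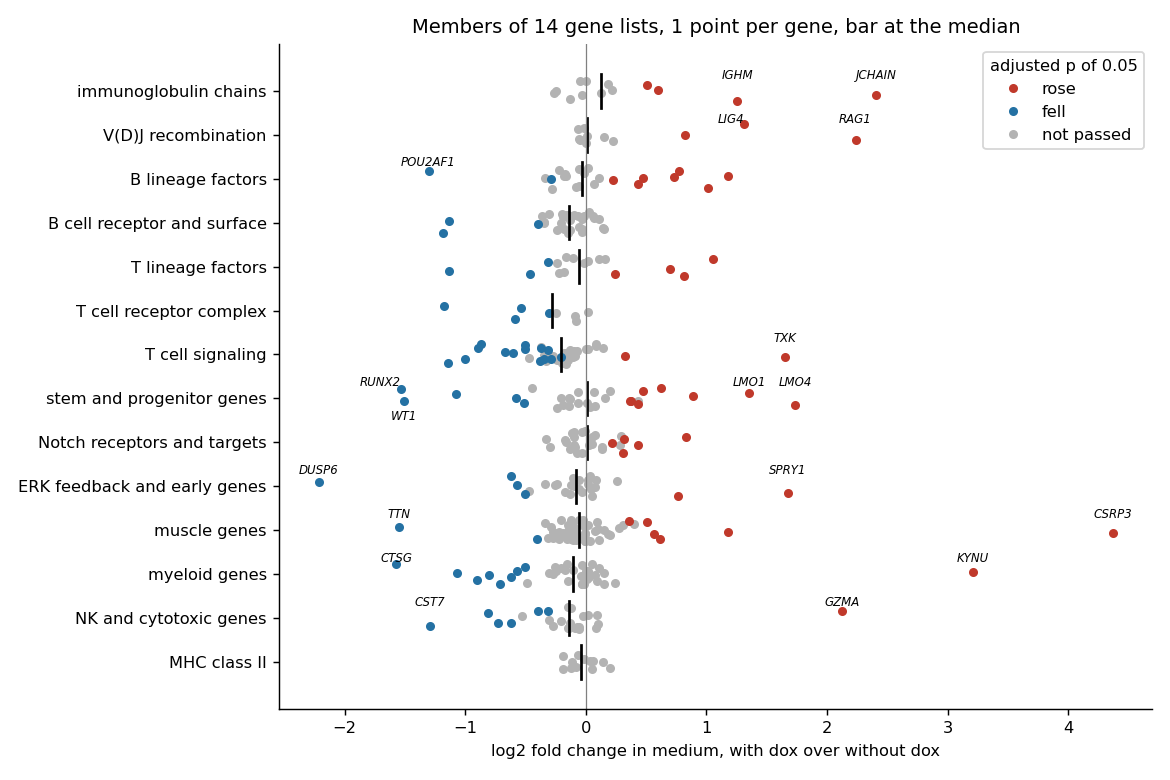
Log2 fold change in medium, with dox over without dox, of the members of 14 gene lists, 1 point per gene, with a black bar at the median of each list. Red points rose and blue points fell at an adjusted p of 0.05, gray points did not pass. The list of T cell signaling has most of its colored points left of 0, at a median of -0.20, and the MHC class II list has none.

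Of 29 stem cell and progenitor genes 8 rose (27.6%) and 5 fell (17.2%), with a median of 0.01. The LIM-only proteins, which bridge factors on DNA, moved in both directions. *LMO4* had 10.45, 10.29 and 10.34 with dox, against 8.57, 8.68 and 8.62 without dox (log2 fold change 1.74 ± 0.08, adjusted p = 7.9e-14), and *LMO1* had 5.57, 5.25 and 5.35 with dox, against 4.13, 3.87 and 4.10 without dox (log2 fold change 1.35 ± 0.14, adjusted p = 1.7e-07). *LMO2* had 8.45, 8.41 and 8.52 with dox, against 8.86, 9.07 and 8.98 without dox (log2 fold change -0.51 ± 0.08, adjusted p = 4.6e-05), and *LYL1*, its bHLH partner, fell by 0.58 ± 0.07. *RUNX2*, a Runt factor, had 7.62, 7.76 and 7.80 with dox, against 9.19, 9.39 and 9.19 without dox (log2 fold change -1.53 ± 0.07, adjusted p = 5.9e-14), and *WT1*, a zinc finger factor often expressed in acute leukemia, fell by 1.51 ± 0.16. The other members that rose were *ATF6*, *SUPT20H*, *MN1*, *MYCN*, *CD44* and *MYB*, by 0.89, 0.62, 0.48, 0.43, 0.37 and 0.37, and *MYCN* stood at 0.04 (adjusted p = 0.742) with the mean of its probe sets. The 13 probe sets that list *RUNX1* carry other symbols as well, so no gene was named from them, and 10 of the 13 rose and none fell. *ZEB2*, a zinc finger repressor, did not pass (log2 fold change 0.20 ± 0.14, adjusted p = 0.53), but rose with the mean of its probe sets, by 0.29 (adjusted p = 0.00932). *SMAD7*, an inhibitor of TGF-beta signaling, fell by 0.76 ± 0.14, and *IGSF10* and *ILDR2*, of the immunoglobulin superfamily, rose by 0.94 ± 0.11 and 0.50 ± 0.09.

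Of 28 Notch receptors, regulators and targets 5 rose (17.9%) and none fell (median 0.01). *IL7R*, the IL-7 receptor chain and a Notch target in T cells, had 5.76, 5.85 and 5.57 with dox, against 4.76, 4.81 and 5.12 without dox (log2 fold change 0.83 ± 0.12, adjusted p = 3.0e-05). *HEY1*, *NOTCH1*, *DTX4* and *RBPJ* rose by 0.43, 0.32, 0.31 and 0.22, and these calls were less stable. That of *HEY1* was lost without with-dox replicate 1 (adjusted p = 0.094), that of *NOTCH1* without no-dox replicate 1 (adjusted p = 0.14), that of *DTX4* without with-dox replicate 3 or no-dox replicate 1 (adjusted p = 0.069 to 0.14), and that of *RBPJ* without with-dox replicates 1 and 3 or no-dox replicates 1 and 2 (adjusted p = 0.085 to 0.23). Without no-dox replicate 1, 2 members rose and 1 fell, and 3 rose without with-dox replicate 1 or 3.

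Of 27 other MEF2 factors, class IIa deacetylases, kinases acting on them and targets, 3 rose (11.1%) and 1 fell (3.7%), and the median was 0.06. *CAMK4*, a calcium-dependent kinase of lymphocytes and neurons, had 7.72, 7.88 and 7.87 with dox, against 6.52, 6.66 and 6.72 without dox (log2 fold change 1.19 ± 0.09, adjusted p = 1.9e-10). *HDAC5*, a class IIa deacetylase, rose by 0.36 ± 0.08, and *CAMK2D*, another calcium-dependent kinase, fell by 0.63 ± 0.09. The third rise was that of *KLF2*, given above.

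Of 57 muscle genes 6 rose (10.5%, against 5.03% of all genes) and 2 fell (3.51%, against 3.58%), and the median was -0.06. Besides *CSRP3*, *MYOM1* and *MYOM2*, myomesins of the M band, rose by 1.18 ± 0.17 and 0.61 ± 0.07, *MB* (myoglobin) by 0.51 ± 0.10 and *PDLIM5* (a Z disc protein) by 0.36 ± 0.07. *MYH3*, the embryonic myosin, rose by 0.56 ± 0.14, a call lost without with-dox replicate 1 or no-dox replicate 1 (adjusted p = 0.068 to 0.13). *TTN* and *TPM1*, a tropomyosin, fell by 1.54 ± 0.11 and 0.40 ± 0.08. The other 49 did not pass. Of 34 neuronal and endocrine genes 5 rose (14.7%) and 1 fell (2.94%, median 0.02). Next to *SCG2*, *AQP4* and *SLC6A13* these were *NPTX1* (neuronal pentraxin 1, 1.12 ± 0.14) and *SCG5* (0.46 ± 0.14, a call lost without with-dox replicates 1, 2 and 3 or no-dox replicates 1 and 3 (adjusted p = 0.073 to 0.23)), while *NPTX2* fell by 0.63 ± 0.15, lost without with-dox replicate 3 (adjusted p = 0.052). A fall was called in 3 members of that list without no-dox replicate 2.

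Survival and growth signaling genes moved in both directions. Of 16 *BCL2* family genes 3 rose (18.8%) and 2 fell (12.5%, median 0.02). *BCL2*, which protects cells from death, had 11.18, 11.17 and 11.20 with dox, against 10.30, 10.40 and 10.24 without dox (log2 fold change 0.87 ± 0.07, adjusted p = 1.3e-09). *BCL2L11* (BIM) and *HRK*, which promote death, rose by 0.49 ± 0.07 and 0.76 ± 0.14. *BCL2A1*, a protector, fell by 0.76 ± 0.15, and *PMAIP1* (NOXA) by 0.28 ± 0.07, a call that leaves 1 fall in the list when lost, which happened without with-dox replicate 1 or no-dox replicate 1 (adjusted p = 0.13 to 0.19). In the list of IL-7 and JAK-STAT genes, with 20 measured, 2 rose (10%), *IL7R* and *SOCS2* (0.35 ± 0.07), and 4 fell (20%, median -0.10). *SOCS2* was at 0.18 (adjusted p = 0.401) with the probe set of largest variance and at 0.11 (adjusted p = 0.371) with the mean of its probe sets. The kinases *PIM1* and *PIM3* fell by 0.55 ± 0.08 and 0.24 ± 0.05. *JAK1* and *STAT5A* fell by 0.31 and 0.20, calls lost without with-dox replicates 1, 2 and 3 or no-dox replicate 2 (adjusted p = 0.054 to 0.11) and without with-dox replicates 1 and 3 or no-dox replicates 1 and 3 (adjusted p = 0.09 to 0.16). The counts were 4 rises without no-dox replicate 3 and 2 falls without with-dox replicate 1.

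Of 26 genes of ERK feedback and early response 2 rose (7.69%) and 4 fell (15.4%, median -0.08). *DUSP6* stood first among the falls, followed by *FOSL2* (0.62 ± 0.08), *SPRED2* (0.57 ± 0.13) and *ETV5* (0.50 ± 0.08), given as sizes of the fall. *SPRY1*, another inhibitor of the pathway, had 10.13, 10.31 and 10.28 with dox, against 8.50, 8.66 and 8.52 without dox (log2 fold change 1.68 ± 0.08, adjusted p = 3.2e-14), and *DUSP1*, a phosphatase of MAP kinases, rose by 0.77 ± 0.06. *DUSP6* and *SPRY1*, both feedback inhibitors of ERK, thus changed in opposite directions. Of 13 genes of the glucocorticoid response 2 rose (15.4%), *DUSP1* and *BCL2L11*, and 4 fell (30.8%), *DDIT4* (-0.90), *TXNIP* (-0.39), *TSC22D3* (-0.24) and the receptor *NR3C1* (-0.27, a call lost without with-dox replicates 1 and 3 or no-dox replicates 1 and 3 (adjusted p = 0.079 to 0.11)), with a median of -0.13.

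Of 35 myeloid genes 8 fell (22.9%) and 1 rose (2.86%, median -0.11). *CTSG* had 6.45, 6.36 and 6.38 with dox, against 7.88, 7.99 and 8.03 without dox (log2 fold change -1.57 ± 0.10, adjusted p = 3.6e-11). *FCER1G*, the common gamma chain of Fc receptors, had 5.89, 5.76 and 5.97 with dox, against 6.95, 6.98 and 6.89 without dox (log2 fold change -1.07 ± 0.11, adjusted p = 1.1e-07). *CXCL3*, a chemokine, and *CEBPB*, a factor of myeloid differentiation, fell by 0.90 ± 0.17 and 0.50 ± 0.05, and *KYNU* was the 1 that rose. *LYZ*, *ITGAM*, *FCGR2A* and *NCF4* fell by 0.80, 0.71, 0.62 and 0.57, but all 4 lost the call when single arrays were left out. Those arrays were with-dox replicate 1 or no-dox replicate 1 (adjusted p = 0.05 to 0.053) for *LYZ*, with-dox replicate 1 or no-dox replicate 2 (adjusted p = 0.052 to 0.096) for *FCGR2A*, with-dox replicate 3 or no-dox replicate 1 (adjusted p = 0.15 to 0.17) for *NCF4*, and with-dox replicates 1 and 3 or no-dox replicates 1, 2 and 3 (adjusted p = 0.056 to 0.11) for *ITGAM*. Of the 8, 5 fell without no-dox replicate 1 and 5 without with-dox replicate 1. The markers *MPO* and *ELANE* stood at 3.56 and 2.77 with dox, against 4.05 and 2.70 without dox, and did not pass.

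Of 25 NK and cytotoxic genes 6 fell (24%) and 1 rose (4%, median -0.14). *GZMA*, a granzyme, had 8.25, 8.23 and 8.24 with dox, against 5.89, 6.28 and 6.18 without dox (log2 fold change 2.12 ± 0.09, adjusted p = 3.4e-15). *PRF1*, the pore-forming perforin, moved the other way, with 9.67, 9.68 and 9.69 with dox, against 10.24, 10.35 and 10.31 without dox (log2 fold change -0.62 ± 0.06, adjusted p = 8.5e-08). *CST7*, a cystatin of cytotoxic cells, fell by 1.29 ± 0.12, *CTSW* by 0.81 ± 0.11, *NCR3* (an activating receptor) by 0.72 ± 0.13 and *EOMES* (a T-box factor) by 0.40 ± 0.08. The 4 NK markers did not pass singly, with the lowest at 3.84 with dox and 3.74 without dox.

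Of 10 erythroid genes 3 fell (30%) and 1 rose (10%, median -0.19). *HBD*, delta globin, had 7.27, 7.03 and 7.11 with dox, against 9.14, 9.08 and 9.08 without dox (log2 fold change -1.96 ± 0.12, adjusted p = 4.1e-12), and *HBB*, beta globin, had 6.57, 6.49 and 6.64 with dox, against 7.36, 6.99 and 7.16 without dox (log2 fold change -0.60 ± 0.12, adjusted p = 0.0019). Both were lower in every array with dox than in any without, as were 702 of the 707 genes that fell. *TFRC*, the transferrin receptor, fell by 0.16 ± 0.05, a call lost without any 1 of the 6 arrays (adjusted p = 0.0811 to 0.115), and *AHSP* rose by 0.55 ± 0.15, a call lost without with-dox replicate 2 or no-dox replicates 2 and 3 (adjusted p = 0.09 to 0.15).

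Of 18 genes of lymphocyte homing and migration 6 fell (33.3%) and 3 rose (16.7%, median -0.09). *ITGAL*, described above, was joined by *SELPLG*, the ligand of P-selectin, which fell by 0.64 ± 0.13, and *ITGA4*, an integrin chain, which fell by 0.36 ± 0.06. *CD69*, *ITGA6* and *ITGB2* fell by 0.38, 0.32 and 0.25, and lost their calls without with-dox replicates 1 and 2 or no-dox replicates 1 and 2 (adjusted p = 0.063 to 0.089), without with-dox replicates 1 and 3 or no-dox replicates 1 and 2 (adjusted p = 0.066 to 0.14) and without with-dox replicates 1, 2 and 3 or no-dox replicates 2 and 3 (adjusted p = 0.061 to 0.17). *ICAM2*, an adhesion molecule, rose by 0.76 ± 0.07, as did *CD44* and *KLF2*. The count of falls was 3 without no-dox replicate 2 and 3 without with-dox replicate 1.

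Of 32 genes of the integrated stress response 10 fell (31.2%, against 3.58% of all genes) and 1 rose (3.12%, against 5.03%, median -0.15). *DDIT4* had 9.75, 9.56 and 9.49 with dox, against 10.48, 10.47 and 10.55 without dox (log2 fold change -0.90 ± 0.08, adjusted p = 2.4e-08), and *TRIB3*, *PCK2* and *ATF3* fell by 0.58 ± 0.07, 0.42 ± 0.08 and 0.36 ± 0.07. *ASNS*, asparagine synthetase, rose by 0.53 ± 0.11. Only 6 members fell without no-dox replicate 3, and 6 without with-dox replicate 2. Of 23 genes of cholesterol and fatty acid synthesis 8 fell (34.8%) and none rose (median -0.14), among them *ELOVL6* (-0.50 ± 0.06), *HMGCS1* (-0.37 ± 0.07) and *MSMO1* (-0.35 ± 0.06), and 5 fell without no-dox replicate 2 or without with-dox replicate 1.

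Of 30 genes of glycolysis and hypoxia 2 fell (6.67%) and 1 rose (3.33%, median -0.09), and *SLC2A3*, the glucose transporter GLUT3, had 4.27, 4.92 and 4.42 with dox, against 5.61, 6.06 and 6.07 without dox (log2 fold change -1.38 ± 0.14, adjusted p = 8.5e-08). Of 32 interferon-stimulated genes 4 fell (12.5%) and 1 rose (3.12%, median -0.09), and *IFITM1*, *IFITM2* and *IFITM3*, which block virus entry, fell by 0.49 ± 0.07, 0.41 ± 0.06 and 0.40 ± 0.05. Of 43 cell cycle genes 3 rose (6.98%, against 5.03% of all genes) and 1 fell (2.33%, against 3.58%, median 0.02), and without no-dox replicate 1 or with-dox replicate 1 there was 1 rise and no fall. *CCND3*, cyclin D3, rose by 0.26 ± 0.06 and passed without each single array, but not with the 6 arrays fitted alone (adjusted p = 0.181) or with the mean of its probe sets (0.12, adjusted p = 0.494). Of 28 genes of ribosome biogenesis and MYC 4 rose (14.3%) and none fell (median 0.07), with 1 rise without no-dox replicate 1 and 2 without with-dox replicate 1 or 2. Of 15 housekeeping genes 1 rose (6.67%), *HPRT1* (0.30 ± 0.06), and 1 fell (6.67%), *TFRC*, with a median of -0.04.

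Other named genes also lost their call with another choice of probe set. The log2 fold change with the mean of all probe sets was, with the adjusted p in parentheses, -0.23 for *ATF3* (0.266), -0.51 for *HMGCS1* (0.105) and -0.15 for *IKZF2* (0.197). It was -0.23 for *ITGB2* (0.105), -0.19 for *LCK* (0.102), 0.09 for *NFATC1* (0.524) and 0.20 for *NOTCH1* (0.185), and 0.20 for *SH2D1A* (0.0928), -0.23 for *TFRC* (0.258), -0.14 for *TRDV3* (0.185) and -0.15 for *TSC22D3* (0.495). With the probe set of largest variance it was 0.56 for *BCL2L11* (0.136), -0.64 for *HMGCS1* (0.42), 0.16 for *HPRT1* (0.649) and 0.25 for *ILDR2* (0.557). It was -0.17 for *ITGB2* (0.492), -0.54 for *JAK1* (0.073), 0.33 for *NFATC1* (0.0626), 0.08 for *NOTCH1* (0.856) and -0.14 for *NR3C1* (0.511), and -0.21 for *PMAIP1* (0.316), 0.13 for *RBPJ* (0.644), 0.13 for *SH2D1A* (0.581), -0.68 for *TFRC* (0.277), -0.29 for *TSC22D3* (0.635) and -0.41 for *TXNIP* (0.335). Median centring ended the calls of *ITGA6*, *ITGB2*, *JAK1*, *LCK*, *SCG5*, *STAT5A* and *TFRC*, at an adjusted p of 0.0511 to 0.18, and a model of the 18 arrays of the MEF2C line those of *AHSP*, *IGKC*, *ITGB2*, *LCK*, *NFATC1*, *PMAIP1*, *RBPJ*, *SCG5*, *STAT5A*, *TFRC* and *VPREB1*, at 0.0517 to 0.157. Quantile normalization ended those of *NFATC1*, *SCG5* and *TFRC*, at 0.0602 to 0.0876. A fit to the 6 arrays alone ended further calls, among them those of *PRKCQ*, *HDAC5*, *MB* and *EOMES*, at 0.0601 to 0.0991.

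The same line on stroma gave a measure of how far the response in medium was particular to medium, since the 3 comparisons share no arrays. On OP9-GFP 600 genes rose (3.03% of 19775) and 905 fell (4.58%), and on OP9-DL1 508 rose (2.57%) and 658 fell (3.33%). Of the 994 genes that rose in medium, 405 also rose on OP9-GFP (40.7% of the first list and 67.5% of the second) and 377 on OP9-DL1 (37.9% and 74.2%), and 302 rose in all 3 cultures. Of the 707 that fell in medium, 454 also fell on OP9-GFP (64.2% and 50.2%) and 373 on OP9-DL1 (52.8% and 56.7%), and 332 fell in all 3. Across the 1701 changed genes the fold changes in medium correlated with those on OP9-GFP at r = 0.90 and with those on OP9-DL1 at r = 0.87. Those genes were picked by their call in medium, and over all 19775 genes r was 0.69 and 0.65. Genes are not independent replicates and all values come from 1 normalization, so these are descriptions.

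A call in 1 culture and not in another does not show a difference, so the difference of the fold changes was tested. The signed log2 fold change was higher in medium than on OP9-GFP for 77 genes (0.389%) and lower for 20 (0.101%). Against OP9-DL1 it was higher for 106 (0.536%) and lower for 46 (0.233%). Of 506 genes that rose in medium and passed in neither stromal culture, 7 differed from both, and of 209 such genes that fell, 3 did. The counts of lower differences moved with single arrays, to 31 against OP9-GFP without OP9-GFP no-dox replicate 2 and to 30 against OP9-DL1 without OP9-DL1 with-dox replicate 2.

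**Figure D4:**
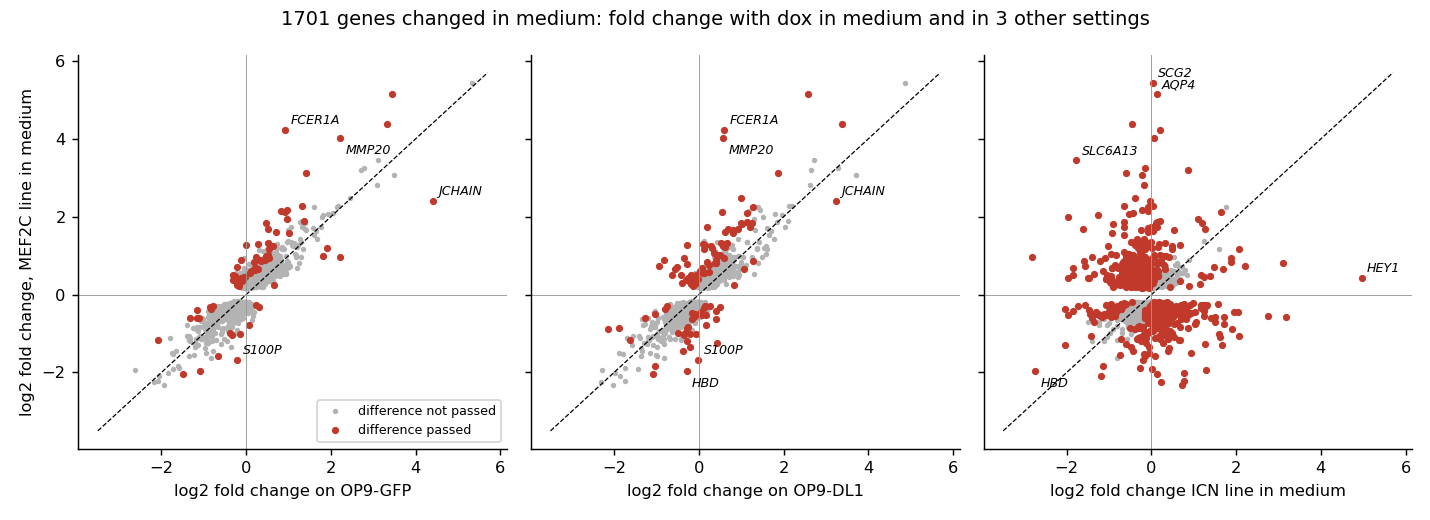
Log2 fold change with dox in the MEF2C line in medium (vertical axis) against that on OP9-GFP, on OP9-DL1 and in the ICN line in medium (horizontal axes), 1 point for each of the 1701 genes changed in medium. Red points differed between the 2 inductions at an adjusted p of 0.05, and the dashed line marks equal values. Points lie along the line against both stromal cultures, and against the ICN line they do not (r = -0.02).

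Among genes changed in medium, *FCER1A* differed most from both stromal cultures. Its arrays with dox stood at 7.23, 7.37 and 7.79 in medium, at 3.39, 3.38 and 3.89 with OP9-GFP stroma and at 3.00, 3.04 and 2.94 with OP9-DL1 stroma. Without dox they were at 3.26, 2.97 and 3.47 in medium, at 2.65, 2.60 and 2.68 with OP9-GFP stroma and at 2.44, 2.37 and 2.40 with OP9-DL1 stroma. The rise in medium exceeded that on OP9-GFP by 3.32 ± 0.20 (adjusted p = 7.6e-10) and that on OP9-DL1 by 3.64 ± 0.20 (adjusted p = 9.4e-11). All 9 arrays without dox were below 3.5, and only the 3 in medium with dox were above 7.

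*MMP20* and *AQP4* followed an order of cultures. *MMP20* averaged 6.45 ± 0.25 in medium, 4.49 ± 0.19 with OP9-GFP stroma and 2.93 ± 0.41 with OP9-DL1 stroma with dox, and 2.43 ± 0.12, 2.27 ± 0.09 and 2.37 ± 0.16 in the same cultures without dox (SD, n = 3 each). *AQP4* averaged 7.26 ± 0.17 in medium, 5.43 ± 0.19 with OP9-GFP stroma and 4.54 ± 0.36 with OP9-DL1 stroma with dox, against 2.11 ± 0.14, 1.98 ± 0.17 and 1.96 ± 0.11 without dox. Against OP9-DL1 the rise in medium was larger by 3.46 ± 0.25 for *MMP20* and by 2.56 ± 0.19 for *AQP4* (adjusted p = 1.1e-08 and 1.1e-08). For *CSRP3* it was larger by 1.05 ± 0.22 than on OP9-GFP and by 1.00 ± 0.22 than on OP9-DL1 (adjusted p = 0.026 and 0.03). *SCG2*, in contrast, averaged 8.55 ± 0.06, 8.57 ± 0.12 and 8.52 ± 0.09 with dox in the 3 cultures, and its differences of 0.12 ± 0.18 and 0.58 ± 0.18 did not pass (adjusted p = 0.91 and 0.26).

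In all, the signed log2 fold change was higher in medium than on both stromal lines for 41 genes and lower for 11. A lower value can be a deeper fall in medium, as for *S100P* (-1.67, against -0.21 on OP9-GFP and -0.02 on OP9-DL1). A higher value can be a shallower fall, as for *EPAS1* (-1.16, against -2.07 and -1.63). Of the 41, 29 rose in medium, and of the 11, 8 fell in medium. *GZMA* rose by 2.12 in medium, 0.91 with OP9-GFP stroma and 0.55 with OP9-DL1 stroma. Its arrays without dox were lowest in medium, at 5.89, 6.28 and 6.18, against 7.73, 7.79 and 7.41 on OP9-GFP and 9.42, 9.46 and 9.46 on OP9-DL1, and with dox they were at 8.25, 8.23 and 8.24 in medium, 8.58, 8.56 and 8.53 with OP9-GFP stroma and 10.06, 10.01 and 9.93 with OP9-DL1 stroma. *LIG4* rose by 1.31 in medium against 0.51 and 0.52 on OP9-GFP and OP9-DL1, *SPRY1* by 1.68 against 0.53 and 0.69, and *TRIB2*, a pseudokinase linked to leukemia, by 1.24 against 0.65 and 0.58. *STS*, steroid sulfatase, rose by 1.27 in medium, and was at -0.01 on OP9-GFP and -0.29 on OP9-DL1.

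Among genes changed in medium, *JCHAIN* had the largest difference the other way, against OP9-GFP. With dox it averaged 4.86 ± 0.10 in medium, 6.71 ± 0.17 with OP9-GFP stroma and 5.56 ± 0.22 with OP9-DL1 stroma, and without dox 2.45 ± 0.07, 2.30 ± 0.19 and 2.33 ± 0.09. The difference was -2.01 ± 0.15 against OP9-GFP (adjusted p = 1.5e-08) and -0.82 ± 0.15 against OP9-DL1 (adjusted p = 0.0049). *S100P*, a calcium-binding protein, had 4.02, 4.06 and 3.89 with dox, against 5.50, 5.51 and 5.96 without dox in medium, while on OP9-GFP and OP9-DL1 its 12 arrays lay between 3.77 and 4.29 with and without dox. Likewise *HBD* fell by 1.96 ± 0.12 in medium, where it was high without dox, and was at -1.08 on OP9-GFP and -0.29 on OP9-DL1. These genes differed between the cultures in their level without dox, with *HBD* at 9.10 ± 0.03 in medium, 7.45 ± 0.15 with OP9-GFP stroma and 6.65 ± 0.15 with OP9-DL1 stroma.

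**Figure D5:**
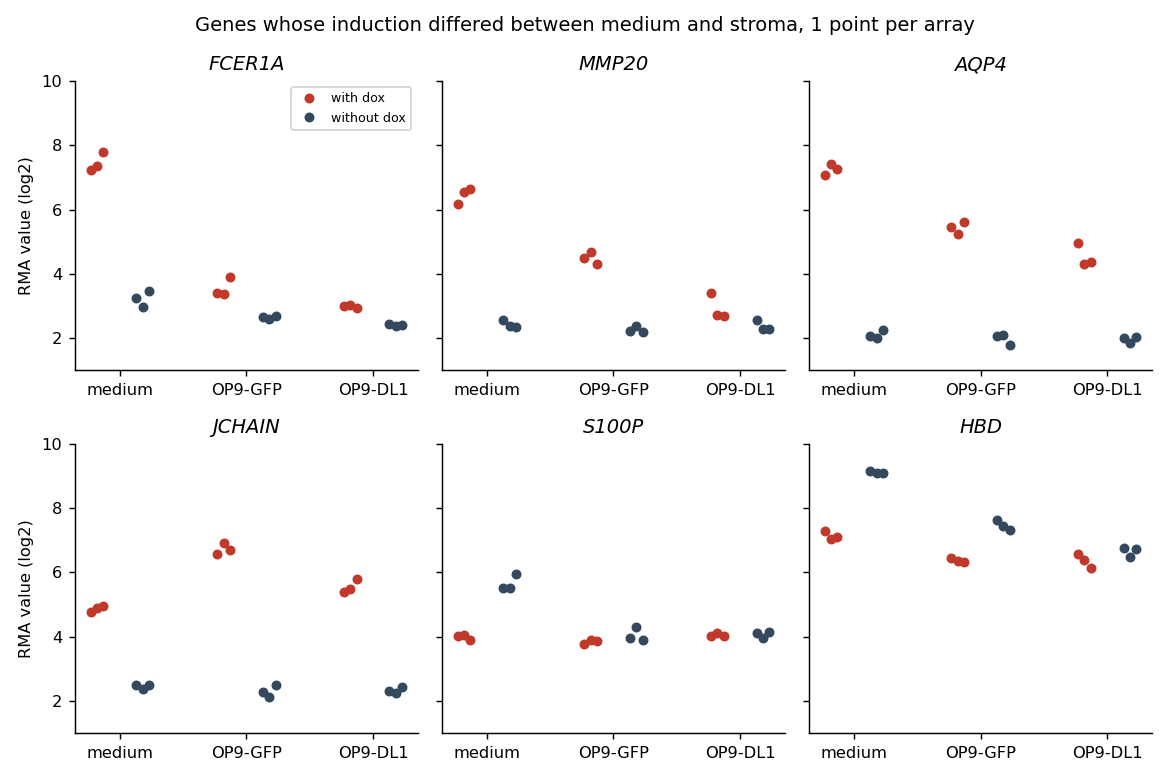
RMA values (log2) of 6 genes whose induction differed between medium and stroma, 1 point per array, with dox (red) left of without dox (dark) in each of 3 cultures of the MEF2C line. *FCER1A*, *MMP20* and *AQP4* are highest in medium with dox, *JCHAIN* is highest on OP9-GFP with dox, and *S100P* and *HBD* are highest in medium without dox.

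The ICN line in the same medium shows what dox did where it drove another construct. There 1273 genes rose (6.44% of 19775) and 1862 fell (9.42%). Of the 994 genes that rose with *MEF2C* induction, 113 also rose with ICN induction, 283 fell and 598 did not pass. Of the 707 that fell, 223 also fell, 120 rose and 364 did not pass. The difference between the fold changes was higher for the MEF2C line in 1663 genes (8.41%) and lower in 977 (4.94%). Of the 25 largest rises with *MEF2C*, 4 rose and 7 fell in the ICN line and 14 did not pass, and of the 25 largest falls 5 fell, 7 rose and 13 did not pass. *SCG2* was at 3.16 ± 0.17 with dox and 3.13 ± 0.19 without dox in the ICN line, and *AQP4* at 2.09 ± 0.17 and 1.97 ± 0.02.

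Some genes moved in opposite directions in the 2 lines. *HEMGN* rose by 1.98 in the MEF2C line and fell by 1.98 in the ICN line, *SLC6A13* rose by 3.45 and fell by 1.77, *SPRY1* rose by 1.68 and fell by 1.63, *BCL2* rose by 0.87 and fell by 1.59, and *NT5E* rose by 2.04 and fell by 1.27. *POU2AF1* fell by 1.30 in the MEF2C line and rose by 1.66 in the ICN line, and *CD3G*, *CD3D* and *LCK* fell by 0.54, 0.59 and 0.20 and rose by 1.25, 0.74 and 0.98. *HEY1*, a direct Notch target, rose by 0.43 in the MEF2C line and by 4.96 in the ICN line, a difference of -4.53 ± 0.15. Others moved the same way in both. *RAG1* rose by 2.24 in the MEF2C line and 1.76 in the ICN line, *GZMA* by 2.12 and 1.65, *IL7R* by 0.83 and 1.87 and *IRF8* by 1.18 and 1.59, while *HBD* fell by 1.96 and 2.74 and *CST7* by 1.29 and 2.04. For these genes a part of dox common to both lines was not tested.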

How the data were processed

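Total RNA of 30 samples was hybridized to Affymetrix HG U133 Plus 2.0 arrays, 1 array per sample. The deposited log2 values were made by the authors with RMA, with affy 1.64.0 and R 3.6.3 listed among the tools in the submitters' processing notes. RMA normalizes all arrays together and compresses changes of dim probe sets. Of 54675 probe sets, 62 controls were left out and 54613 tested with limma 3.58.1 in R 4.3.3, in a model of 10 group means over the 30 arrays (20 residual degrees of freedom), with Benjamini-Hochberg adjustment over all tested probe sets. Each of 19775 genes was represented by the probe set that was brightest on average across the series, among 41091 probe sets with 1 symbol. Probe sets with several symbols (1801) or none listed (11777) are unnamed here. Differences between inductions were contrasts of the same model. The number of arrays limits the precision. The script was tested on simulated data.

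Genes were named as the 25 largest rises and the 25 largest falls called without overlap, the 10 largest differences each way from each other induction that were also called in medium, genes that the study discusses, and members of 29 gene lists. The groups, genes and lists were chosen with earlier results of these data known. Alternatives covered scaling, filtering, the variance prior, the choice of probe set, the arrays in the model, a replicate block, other call criteria and each array left out.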

Additional observations from a re-analysis of the deposited data

Results flagged for a closer look

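These genes had the largest tested differences in log2 fold change between induction in medium and another induction (limma, Benjamini-Hochberg), as medium minus the other, with no array shared between the inductions compared.

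Against OP9-GFP the difference was 3.32 for *FCER1A*, 1.80 for *MMP20*, 1.71 for *SHROOM3*, 1.70 for *AQP4* and 1.38 for *FGL2*. It was 1.29 for *STS*. For *HRH4* it was 1.31, a call lost when any of 8 arrays was left out (OP9-GFP no-dox replicates 2 and 3 and with-dox replicate 2, and medium no-dox replicates 1, 2 and 3 and with-dox replicates 2 and 3), at an adjusted p of 0.0506 to 0.116. The signed fold change was lower in medium for *JCHAIN* (-2.01), *S100P* (-1.46) and *FAT3* (-1.27).

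Against OP9-DL1 the difference was 3.64 for *FCER1A*, 3.46 for *MMP20*, 2.56 for *AQP4* and 1.71 for *GBP1*. It was 1.67 for *PDE4B*, 1.57 for *GZMA* and 1.56 for *STS*. The signed fold change was lower in medium for *HBD* (-1.68), *RGS18* (-1.67) and *S100P* (-1.65).

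Against ICN induction the difference was 5.41 for *SCG2*, 5.22 for *SLC6A13*, 5.02 for *AQP4*, 4.83 for *CSRP3* and 4.03 for *FCER1A*. It was -4.53 for *HEY1*.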

How the results depend on the processing

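The counts of 994 rises and 707 falls in medium were 441 and 353 with the 6 arrays fitted alone. A Student's t-test on the 6 arrays gave 162 and 105 after adjustment, and 1826 and 1568 at an unadjusted p under 0.05. The study names that test for expression levels, but it compared its arrays with limma, all samples with dox against those without. By the study's criteria the counts in medium were 215 and 153, and with a log2 fold change beyond 1 they were 81 and 57. Leaving out 1 array gave 590 (without no-dox replicate 1) to 1007 rises and 521 to 618 falls. Quantile normalization gave 884 and 926, which turned the balance toward falls, and median centring 930 and 530. With a trended and robust prior, the difference from OP9-GFP was called in 125 genes higher and 34 lower, and that from OP9-DL1 in 161 and 71. The mean of all probe sets gave 35 genes lower against OP9-GFP. With single arrays left out, 55 to 105 genes were higher and 16 to 31 lower against OP9-GFP, 73 to 110 and 30 to 40 against OP9-DL1, and 1377 to 1718 and 834 to 955 against ICN induction. The causes were not tested.

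With the probe set of largest variance, *IDI1* turned to 0.27 (adjusted p = 0.211) and *IGHM* to -0.45 (adjusted p = 0.0193). Of 264 genes recomputed in medium, 151 changed their call under some alternative, 2 reversed and 48 lost the call with an array left out.

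Same-numbered arrays did not deviate together (r = -0.01, 0.03 and -0.09), and pairs of unlike number had r from -0.08 to 0.10. With so few arrays this does not settle whether same-numbered arrays were handled together. With the replicate block, 1002 genes rose and 737 fell in medium, 79 and 21 differed from OP9-GFP, 112 and 46 from OP9-DL1, and 1688 and 1002 from ICN induction.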

Other observations

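Mast cell and basophil genes were looked at after *FCER1A* and *HRH4* had been seen among the rises, so the list was chosen with its values known. Of 22 such genes 4 rose, *FCER1A* and *HRH4* among them, 4 fell and 14 did not pass (5.03% and 3.58% of all genes rose and fell), with a median log2 fold change of -0.14. *HPGDS*, the prostaglandin D synthase of mast cells, rose by 0.73 ± 0.07, and *CPA3*, their carboxypeptidase, by 0.25 ± 0.07, a call lost without with-dox replicates 2 and 3 or no-dox replicates 1, 2 and 3 (adjusted p = 0.05 to 0.13), and in a model of the 18 arrays of the MEF2C line (adjusted p = 0.0806). *HDC*, which makes histamine, fell by 1.11 ± 0.12. *PTGDR2*, a prostaglandin D receptor, fell by 0.66 ± 0.10, and *SRGN*, the granule proteoglycan serglycin, by 0.61 ± 0.08. *SIGLEC6* fell by 0.43 ± 0.12, a call lost without with-dox replicates 1 and 2 or no-dox replicates 1 and 2 (adjusted p = 0.055 to 0.075).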
